A study of Mus musculus with 6 samples.

Results

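Beko cells are a mouse leukaemia pre-T (progenitor T) cell line. The region examined in them was the domain of Myc, the gene of a growth-promoting transcription factor. Its members were the accessible regions (ATAC-Seq peaks) centred on chromosome 15 between 500 kb before and 2 Mb after the Myc start in the GENCODE vM1 annotation, that is, chr15:61316946-63816946 in mm9. This rule gave 49 peaks of the 32527 in the list. All peaks are numbered below from peak 1, the farthest upstream, to peak 49. The cells were treated for 24 h with the gamma-secretase inhibitor (GSI) DAPT (3 libraries) or with the solvent DMSO as control (3 libraries). Both groups are the same line without any labelled genetic change, and the labels and the study's methods differ in the unit of the DAPT dose. ATAC-Seq cuts open chromatin with a transposase, so that reads pile up where DNA is accessible. The peak list was made from the 6 libraries together, with peaks kept when found in 3 libraries, so that a peak may come from either treatment. It holds positions only, so that GSI and DMSO were not compared here, no test was run and no value has a replicate error. The list does not give the depth per library.

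Gamma-secretase releases the Notch intracellular domain, which binds the DNA-bound factor RBPJ and turns on target genes. The study describes Notch signalling as constitutively active in Beko cells. Myc is a direct Notch target in T-cell leukaemia, where Notch acts on it through an enhancer far downstream of the gene, in a stretch of DNA that also holds the long non-coding RNA gene Pvt1 and, farther out, a cluster of enhancers used in blood stem and progenitor cells. An enhancer is a piece of DNA that raises transcription from a promoter at a distance and is usually accessible where it is in use.

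The sequence of the peak at the known distance of the Notch-dependent enhancer is shown first because the results below turn on it. The 300 bases with the most binding words (short sequences that factors of T-cell development prefer) lie within peak 28, at chr15:63087279-63087578 of mm9, on the plus strand. This piece is intergenic. Capitals mark 9 matches to the words listed here, searched on both strands. The word CTTTGA of TCF and LEF factors also lies in this piece, at chr15:63087567-63087572 on the minus strand. It is left in lower case. The RBPJ word was TGGGAA, with TGAGAA as a weaker form of it. For E proteins, which drive lymphoid development, it was CAGCTG. RUNX factors were given TGTGGT and also the variant TGCGGT of it. GATA factors were given AGATAA and also the variant TGATAA of it. For MYB it was TAACNG, where N is any base, and for ETS factors, which had no match here, it was GGAAGT.
peak 28: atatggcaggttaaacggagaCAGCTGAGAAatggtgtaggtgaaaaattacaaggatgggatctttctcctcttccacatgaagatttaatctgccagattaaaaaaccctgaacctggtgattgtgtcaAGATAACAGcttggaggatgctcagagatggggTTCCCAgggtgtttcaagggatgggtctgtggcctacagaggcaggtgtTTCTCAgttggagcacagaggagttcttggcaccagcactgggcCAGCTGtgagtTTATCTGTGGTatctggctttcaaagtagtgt
In the first run of capitals the E protein word overlaps the TGAGAA word. The second run holds a GATA word that overlaps a MYB word, and the last run holds a GATA word on the minus strand that shares a base with a RUNX word. On the minus strand the RBPJ word reads TTCCCA in this orientation and its weaker form reads TTCTCA here.

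Farther pieces are shown for the other distal members with 2 copies of the stricter RBPJ word TGGGAA. Both are intergenic. Peak 34 holds them in the same orientation at chr15:63172178-63172292, and peak 45 in opposite orientation at chr15:63553371-63553595, both in mm9 on the plus strand and with TGGGAA in capitals on either strand.
peak 34: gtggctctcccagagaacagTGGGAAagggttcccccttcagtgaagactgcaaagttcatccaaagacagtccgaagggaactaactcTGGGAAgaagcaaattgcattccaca
peak 45: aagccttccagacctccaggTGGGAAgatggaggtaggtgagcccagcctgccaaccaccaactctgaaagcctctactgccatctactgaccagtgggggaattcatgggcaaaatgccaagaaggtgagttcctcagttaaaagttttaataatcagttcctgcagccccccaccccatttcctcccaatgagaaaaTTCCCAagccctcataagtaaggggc
Pairs of RBPJ words that face each other head to head, with 15 to 17 bases between them, are known to let RBPJ-Notch complexes bind side by side. Peak 49, in an intron of Fam49b at the far end of the window, held the only such pair among the members, here of the weaker word TGAGAA, at chr15:63800854-63800906 of mm9.
peak 49: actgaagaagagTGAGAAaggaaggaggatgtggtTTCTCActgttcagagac

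Accessible regions lay almost entirely on the downstream side of Myc and reached to the end of the window. Of the 49 peaks, 1 lay farther upstream than the promoter, 3 lay at the promoter and in the gene, 9 from there to the end of Pvt1, and 11 between the end of Pvt1 and 1 Mb. A further 14 lay between 1 and 1.5 Mb, the interval that holds the Notch-dependent enhancer, and 11 between 1.5 and 2 Mb, the interval that holds the blood enhancer cluster near 1.7 Mb. Thus, 25 peaks (51.0% of the members and 51.6% of the 29493 bp they covered) lay more than 1 Mb from the gene. The map of peak widths shows this layout together with the genes.

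**Figure D1:**
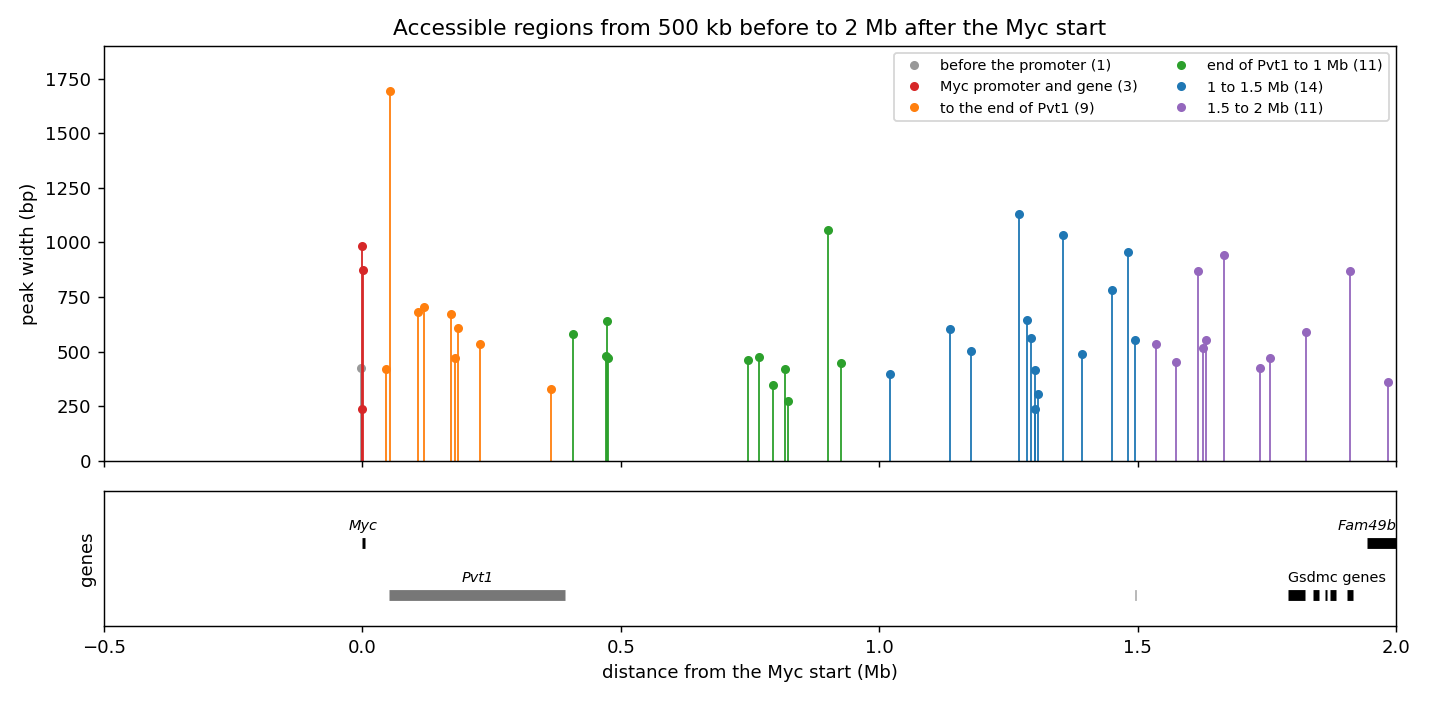
Upper panel: each of the 49 peaks as a stem at its distance from the Myc start (x axis, Mb), with its width in bp as the height and its interval as the colour. Lower panel: protein-coding genes in black and Pvt1 and the small RNA gene U7 in grey. The widest stem, 1695 bp, stands at the Pvt1 start. The stem at 1270 kb, the known distance of the Notch-dependent enhancer, is 1129 bp.

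At Myc itself, 4 peaks formed the run with the most members in the window, where a run is a series of peaks less than 5 kb apart. This run spanned chr15:61814845-61819154, 4.31 kb, which was shorter than the other 3 runs (4.72 to 6.02 kb with 2 or 3 peaks). Peak 3 (chr15:61816410-61817391, 982 bp) covered the annotated Myc start at 61816946 and part of the first exon. Peak 2 (237 bp) ended 862 bp before the start. Peak 1 (424 bp) ended 1678 bp before the start and was the only member beyond 1 kb upstream. Peak 4 (chr15:61818282-61819154, 873 bp) covered untranslated and coding sequence of an internal exon together with the starts of shorter Myc transcripts, the gene having 6 annotated transcripts. Peaks 3 and 4 were GC-rich (60.8% and 60.7%) and were the only CpG-rich members by a GC content of at least 50% and a ratio of observed to expected CpG of at least 0.6 (0.772 and 0.796). Peak 3 held 2 TGGGAA words and 5 SP words (GGGCGG, bound by SP1 and its relatives). None of the 3 promoter and gene peaks had the word CACGTG, the E-box of MYC and its partner MAX.

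On the upstream side the chromatin was nearly bare. No member lay between 500 kb and peak 1, and the nearest peak before the window ended at 61260728, 556 kb before the Myc start. Downstream, the first peak outside the window came soon after its end, at 2.013 Mb (chr15:63829046-63830285, 1240 bp). By peak centres, 6.12% of the members lay before the Myc start. Among 16730 other autosomal protein-coding genes with at least 20 peaks in a window laid out the same way, 85.6% had a larger share before the start (median 21.8%). The share beyond 1 Mb was 51.0% at Myc against a median of 34.3%, and 81.1% of these windows had a smaller share. Such windows overlap between neighbouring genes, so these percentages are descriptions only.

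Pvt1 is a long non-coding RNA gene that begins 52.6 kb after Myc on the same strand. Its start lay in peak 6 (chr15:61869281-61870975), with 1695 bp the widest member, and 7 narrower peaks of 329 to 703 bp (peaks 7 to 13) lay in its introns, from 107 to 366 kb downstream of Myc. These measured 681 bp (peak 7, 107 kb), 703 bp (peak 8, 120 kb), 673 bp (peak 9, 172 kb), 473 bp (peak 10, 180 kb), 607 bp (peak 11, 184 kb), 533 bp (peak 12, 227 kb) and 329 bp (peak 13, 366 kb), with the narrowest at the far end. Peak 5 (419 bp) lay between both genes, at 46.7 kb. Peak 6 also held the most TGGGAA words of any member, 5 in all. One of them at 52.9 kb and one at 53.9 kb were preceded by G, which makes the longer RBPJ word GTGGGAA. They are shown with 5 flanking bases, TGGGAA in capitals, at chr15:61869834-61869839 on the minus strand and chr15:61870832-61870837 on the plus strand.
peak 6, 52.9 kb: gctcgTGGGAAtgcaa
peak 6, 53.9 kb: gccagTGGGAAagcgt
The site at 52.9 kb reads CGTGGGAA, which no other member contained. This 8-base word was found in 1.94% of the 32478 other peaks, and GTGGGAA in 6 of 49 members (12.2%) against 14.2% of the other peaks. Peak 12, at 227 kb in a Pvt1 intron, stood out among the intronic peaks by 4 CAGCTG words. Across the interval from Myc to the end of Pvt1 there were 23.2 peaks per Mb.

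Between the end of Pvt1 and 1 Mb downstream the peaks were narrower and thinner on the ground, at 18.1 per Mb with a median of 469 bp. Only 3 of 11 reached 500 bp. Outside the window, peaks more than 1 kb from every transcript start had a median of 465 bp. Peaks 15 to 17 formed a run of 4.72 kb around 474 kb, after which the largest gap of the window, 269 kb, opened up to peak 18 at 745 kb. The widest was peak 23 at 900 kb (chr15:62716605-62717659, 1055 bp), which carried 3 GATA words and 1 GTGGGAA. A STAT word (TTCNNNGAA, the site of the factors that cytokine receptors activate) was found in 6 of these 11 peaks. Among other distal peaks of the same width 13.7% had it, and 16.8% at the same width and GC content.

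A peak lay at the known distance of the Notch-dependent enhancer, about 1270 kb downstream of Myc. Peak 28 (chr15:63086707-63087835) covered position 63086946, which is 1270 kb from the Myc start, and its centre lay at 1270325 bp. The distance of 1270 kb is a rounded value, and peak 28 was matched to the enhancer by distance alone. Neither the boundaries nor the sequence of the known enhancer were compared. With 1129 bp peak 28 was the widest distal member, where distal means more than 1 kb from every annotated transcript start. It was wider than 97.2% of the other distal peaks in the list. The next peak before it lay at 1178 kb, with a gap of 91.9 kb between them. On its far side 5 peaks followed within 50 kb: peak 29 at 1285 kb (644 bp), peak 30 at 1295 kb (562 bp), and a run of 6.02 kb formed by peaks 31 to 33 at 1301, 1302 and 1307 kb (237, 416 and 307 bp). Within 50 kb on either side of the enhancer position there were thus 6 peaks covering 3295 bp, or 60.0 per Mb. The whole interval from 1 to 1.5 Mb, which includes them, had 28 per Mb. Of all 100-kb bins on chromosome 15, 89.8% had 5 or fewer peaks. Within 100 kb there were 8 peaks, 40.0 per Mb. Beyond them stood peak 34 at 1355 kb (1034 bp), peak 36 at 1451 kb (783 bp) and peak 37 at 1482 kb (958 bp), the last with 4 CAGCTG words.

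Within peak 28 the words lay from 471 bp before to 495 bp after the centre, and 12 of the 17 matches lay after it. RBPJ words of either form occurred 4 times, at 36, 175, 224 and 384 bp past the centre, those at 175 and 384 bp being the stricter form. GATA words occurred 4 times, MYB words 3 times, and E protein, RUNX and TCF and LEF words (CTTTGA) 2 times each. ETS, STAT, SP and CACGTG words had no match. Among the 596 other distal peaks within 10% of its width, 1.34% had as many or more GATA words (mean 0.837). For the RBPJ words 19.0% had as many or more (mean 2.17), and for TGGGAA alone 31.9% (mean 1.12). The count of GATA words was thus high for a peak of this size, whereas the count of RBPJ words was common. The GC content of peak 28 was 40.0%, against a median of 50.1% over other distal peaks, and the part of base composition in the word counts was not tested for this peak.

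**Figure D2:**
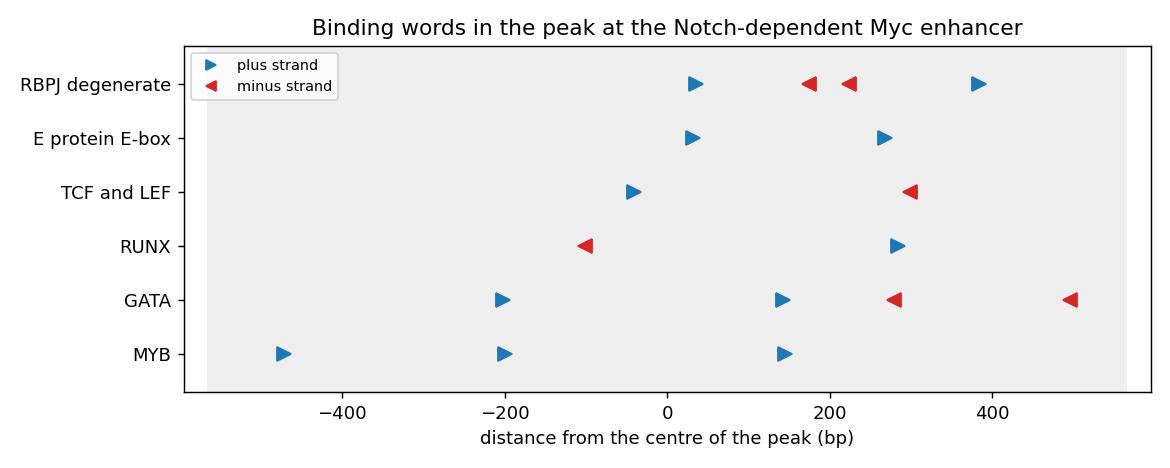
Matches to the binding words in the 1129-bp peak 1270 kb downstream of Myc (grey span), with the distance from the centre of the peak in bp on the x axis and the factor on the y axis. Arrowheads give the strand. CAGCTG reads the same on both strands and is drawn on the plus strand. All 4 RBPJ words lie past the centre, at 36 to 384 bp.

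The last interval, 1.5 to 2 Mb, had 11 peaks at 22.0 per Mb. Around the position of the blood enhancer cluster, peaks 41 to 46 were found at 1616, 1626, 1632, 1667, 1736 and 1755 kb and measured 868, 519, 555, 942, 425 and 472 bp. The nearest to 1.7 Mb were peaks 44 and 45, on either side of it. Peak 44 (chr15:63483720-63484661) held 4 GATA words, as many as the Notch-dependent enhancer. Peak 47 (592 bp) lay 2262 bp from the start of Gsdmc, and peaks 48 (871 bp) and 49 (361 bp) in introns of Gsdmc4 and Fam49b. Gsdmc and its neighbours encode gasdermins, a family with pore-forming members that act in cell death. None of the 5 family genes here (Gsdmc, Gsdmc2, Gsdmcl1, Gsdmc3 and Gsdmc4) had a peak within 1 kb of a start, the nearest members lying 2262 to 35697 bp away. Fam49b, a protein-coding gene, crosses the end of the window, and both of its annotated starts lie beyond it. Of the 12 annotated genes in or crossing the window, Myc had 3 peaks within 1 kb of a start, Pvt1 had 1, and Fam49b had 2 that lay outside the window. The other genes had none.

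In bins of 100 kb, the peaks did not decline steadily with distance. The highest bins held 5 peaks and lay at 100 to 200 kb, in Pvt1, and at 1300 to 1400 kb, beyond the Notch-dependent enhancer. Of 1034 bins on chromosome 15, 85.9% had fewer than 5 and 54.0% had none. The Myc window had 6 empty bins of 25, which were the 4 farthest upstream and the 2 between 500 and 700 kb.

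**Figure D3:**
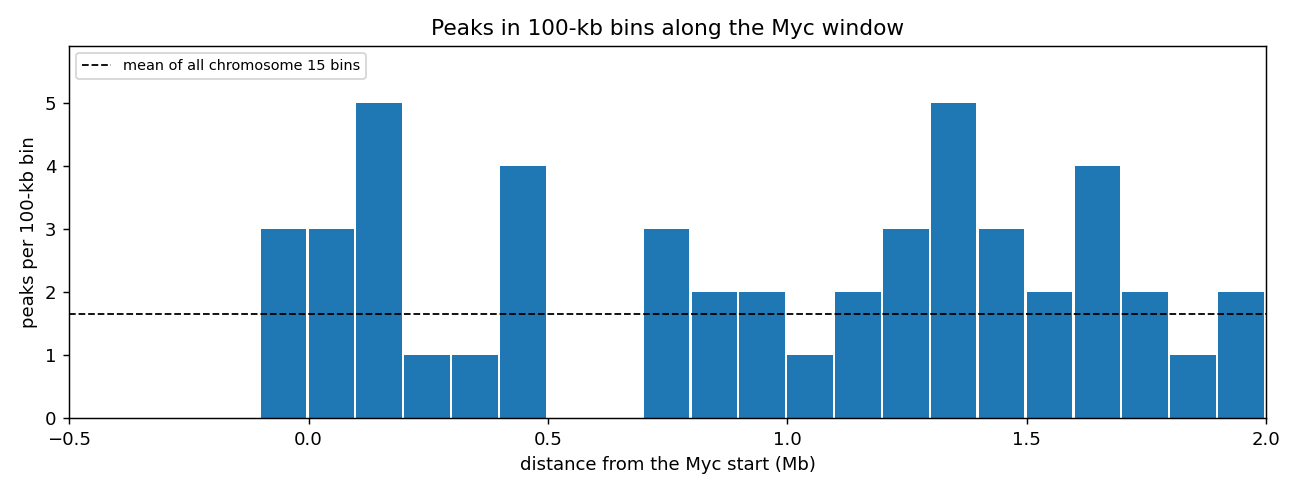
Number of peak centres in each 100-kb bin (bars) against the distance from the Myc start in Mb. The dashed line is the mean over the chromosome 15 bins, 1.65. The bars are highest, at 5 peaks, at 0.1 to 0.2 Mb and 1.3 to 1.4 Mb, and are missing before -0.1 Mb and from 0.5 to 0.7 Mb.

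The window as a whole had 19.6 peaks per Mb (95% Poisson interval 14.5 to 25.9, counting error only) against 16.4 per Mb on the rest of chromosome 15, a ratio of 1.19 (0.882 to 1.58). This difference over all peaks lay within counting error. For distal peaks the densities were 18 and 11.9 per Mb, a ratio of 1.51, for which no interval is given. The autosomes had 8.53 ± 1.90 distal peaks per Mb (SD, n = 19 chromosomes). Median spacing was wider at Myc, 32.4 kb, than over all peaks, 18.9 kb.

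The domain had many peaks for so few genes, a trait that the window of Bcl11b shared. In windows laid out the same way at 21103 other autosomal coding genes the median was 48.0 peaks and 35.0 coding gene starts, whereas the Myc window had 49 peaks and 6 coding starts. In number of peaks it was thus ordinary, with 50.1% of windows below it. All of the 553 windows with at most 6 coding starts had fewer peaks (median 4 peaks). The T-cell regulator genes Bcl11b and Gata3, which encode factors of early T-cell development, had 80 and 31 peaks in their windows and 9 coding starts each, and 99.8% and 91.7% of the 1330 windows with at most 9 coding starts had fewer. Only 25% and 3.23% of their peaks lay beyond 1 Mb, against 51.0% at Myc. Before the promoter, Bcl11b had 13 peaks and Gata3 had 11, against 1 at Myc.

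**Figure D4:**
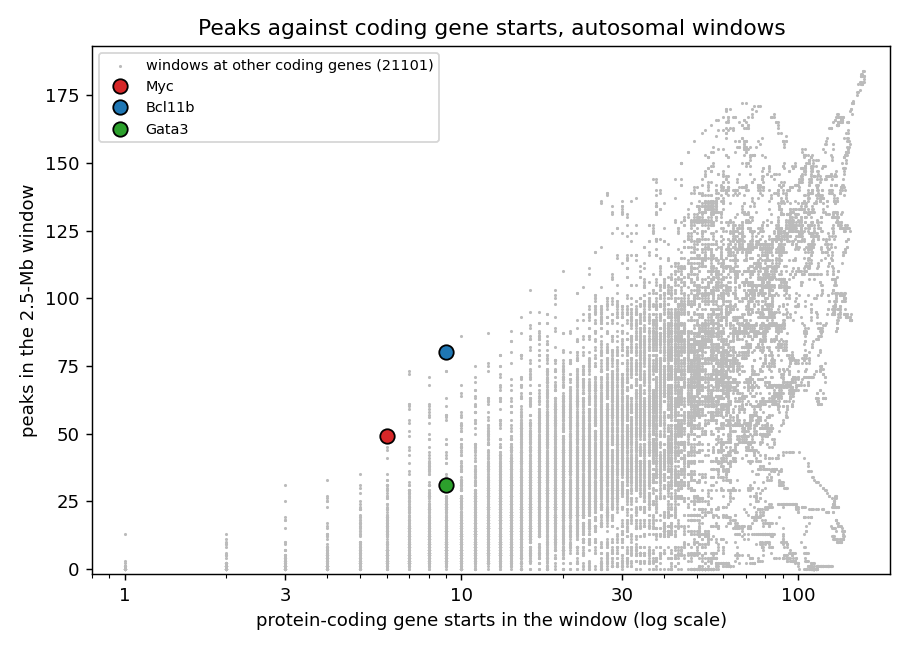
Each grey point is the 2.5-Mb window of an autosomal protein-coding gene, with the coding gene starts it contains on a log x axis and its ATAC-Seq peaks on the y axis. Myc (red, 6 starts and 49 peaks) lies above every window with as few starts, Bcl11b (blue, 80 peaks) near the top of its column and Gata3 (green, 31 peaks) lower.

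Seen as a gene desert, the 1.79 Mb between the end of Myc and Gsdmc contained 42 peaks (23.5 per Mb). This comparison was added after the values were seen. Of 244 autosomal stretches of at least 1 Mb without a coding gene, the Myc stretch had the most peaks and ranked 4 by density. Denser were Vrk1 to 3110018I06Rik (26.9 per Mb), Id2 to Rnf144a (24.8 per Mb) and Sall3 to Galr1 (24.7 per Mb). The median density was 0.261 peaks per Mb, and 121 stretches had no peak.

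Members were mostly distal. More than 1 kb from any transcript start lay 45 of 49 (91.8%, 95% Wilson interval 80.8 to 96.8) against 64.6% of all peaks, and more than 50 kb away 30 of 49 (61.2%, 47.2 to 73.6) against 10.2%. The sparse annotation of the window and these shares cannot be told apart. The median distal member was 519 bp wide, where the 20960 other distal peaks had a median of 465 bp. They were lower in GC content (median 44.1% against 50.1%), and none was CpG-rich against 2.94% of the others. The GC content of the members fell with the intervals from a median of 60.7% at the promoter and gene through 50.1% in the Pvt1 region to 43.1%, 42.1% and 44.8% farther out, and the DNA of those intervals as a whole had 53.8%, 44.1%, 39.3%, 38.5% and 42.0%.

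The share of members with an RBPJ word differed from that of the other peaks by less than counting error. TGGGAA was found in 18 of 49 members (36.7%, Wilson interval 24.7 to 50.7) against 42.5% of all other peaks, with 26 matches in all. By interval, the members with it numbered 1, 1, 4, 4, 5 and 3 from upstream to downstream. Counting TGAGAA as well, 29 members (59.2%) had a word against 62.5%. Within the central 200 bp of the peaks TGGGAA was present in 4 members (8.16%) against 15.3% elsewhere. Among the 45 distal members, 16 (35.6%) had TGGGAA against 41.6% of distal peaks of the same width (within 10%). A word is a description of the DNA and does not show binding.

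Of the other words, all searched on both strands, the STAT and GATA words stood farthest above distal peaks of the same width, apart from the head-to-head pair found in a single member. TGGGAA or TGAGAA was in 27 distal members (60.0%) against 63.7%. The STAT word was in 16 of 45 distal members (35.6%, 23.2 to 50.2) against 15.2%, and still against 17.5% when the compared peaks were also within 3 percentage points of GC content (an alternative chosen after seeing the data, with at least 4 peaks compared per member). GATA words were in 23 (51.1%, 37.0 to 65.0) against 35.0%, but against 46.3% at the same GC content, a share inside that interval. TCF and LEF words were in 23 (51.1%) against 36.1%, and 41.6% at the same GC content. MYB words were in 26 (57.8%) against 44.7%, RUNX words in 26 (57.8%) against 52.0%, ETS words in 20 (44.4%) against 41.4%, and CAGCTG in 20 (44.4%) against 46.5%. Below the other distal peaks was the CTCF core word with 6 (13.3%, 6.26 to 26.2) against 26.9% (24.0% at the same GC content). SP words were in 4 (8.89%, 3.51 to 20.7) against 19.2% (9.66% at the same GC content). CACGTG was in 1 (2.22%, 0.393 to 11.6) against 10.4% (8.56% at the same GC content). That member was peak 20 at 794 kb, with 2 matches. For CTCF, SP and CACGTG the share at the same GC content lay inside the interval. The head-to-head pair of RBPJ words was found in 1 (2.22%, 0.393 to 11.6) against 0.185%. Several words overlap in sequence, and the wide intervals reflect 45 peaks.

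The words were also counted in the 4 intervals downstream of the gene, each beside other peaks of the same class (distal or promoter), width and GC content. From Pvt1 outward, GATA words were in 3 of 9, 6 of 11, 10 of 14 and 5 of 11 peaks, against 40.8%, 43.7%, 55.1% and 45.9% of the compared peaks. The interval of the Notch-dependent enhancer thus had the highest count (71.4%, 21 matches) and also the highest compared share, its peaks being low in GC content. At the same width alone the compared share there was 36.7%. ETS words were in 8 of 9, 6 of 11, 2 of 14 and 5 of 11 peaks, against 45.9%, 37.8%, 40.4% and 43.4%. RUNX words were in 3 of 9, 7 of 11, 10 of 14 and 6 of 11 peaks, against 55.4%, 50.8%, 53.2% and 55.9%. STAT words were in 2 of 9, 6 of 11, 4 of 14 and 4 of 11 peaks, against 17.5%, 16.8%, 18.8% and 18.6%. These counts are small and were not tested.

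**Figure D5:**
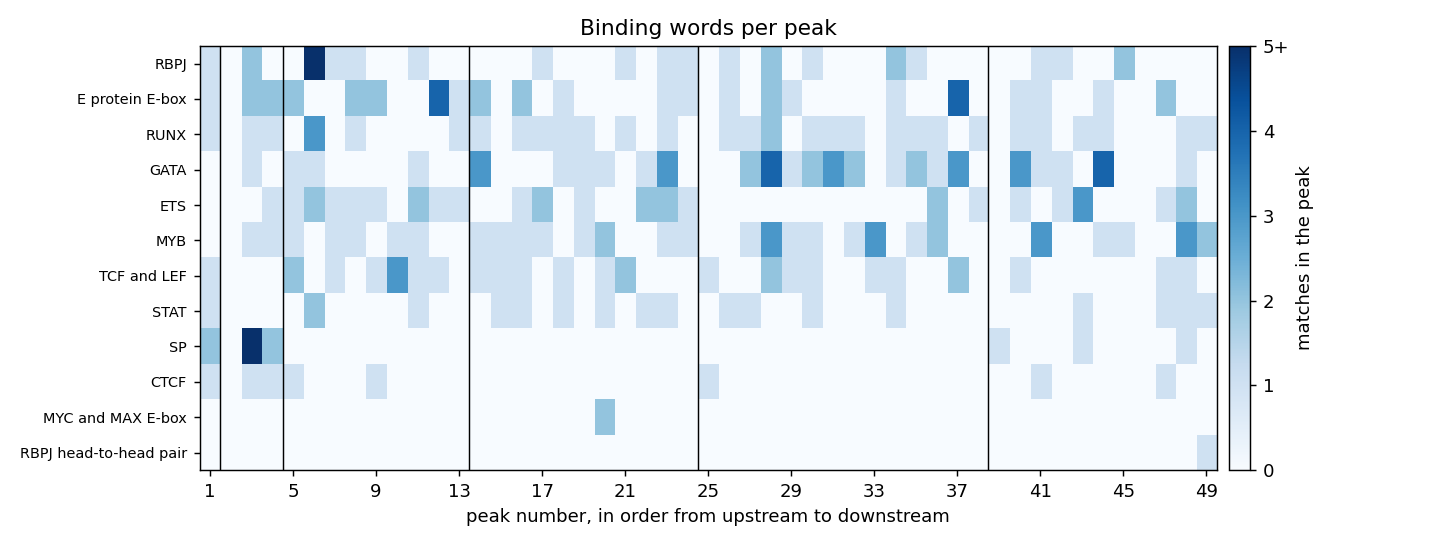
Number of matches (colour, 0 to 5 or more) to each word in each of the 49 peaks, ordered along the chromosome from upstream (peak 1) to downstream (peak 49), with black lines between the intervals. RBPJ is TGGGAA. The darkest cells are the RBPJ words of the peak at the Pvt1 start (peak 6) and the SP words at the Myc start (peak 3), each with 5 matches, and GATA words are densest from peak 27 to peak 37.

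The partners and relatives of MYC were examined at their own promoters. MYC acts as a dimer with MAX, which the MXD proteins, MNT and MGA also bind, and MLX forms a parallel branch. A peak lay within 1 kb of a start for 11 of the 14 annotated genes of this network, where 46.9% of all protein-coding genes had one (10506 of 22380). Myc and Mnt had 3 peaks each. Max (965 bp), Mxd1 (953 bp), Mxd3 (1281 bp), Mxi1 (1334 bp), Mga (879 bp), Mlx (824 bp), Mlxip (951 bp), Mycl1 (924 bp) and the MYC-binding factor gene Zbtb17 (763 bp) had 1 each, with the width in brackets. Mycn, the paralogue used in neural and early tissues, had its nearest peak 53370 bp away, Mxd4 8598 bp and Mlxipl 15169 bp. Marker genes at this background of 46.9% had a promoter peak in 14 of 15 cases for T-lineage genes (all but Cd3d) and in 0 of 6 for B-lineage genes. For myeloid genes it was 1 of 6 (Sfpi1, older symbol of Spi1), and for erythroid genes 3 of 6 (Gata1, Klf1 and Epor, but not Tal1 and the globin genes Hba-a1 and Hbb-b1). An open promoter is not a measure of RNA.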

How the data were processed

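ATAC-Seq libraries of Beko cells (3 DMSO, 3 GSI, grouped by their titles) were made with a commercial kit. According to the methods and the submitters' processing notes, reads were aligned to mm9 with HISAT2 2.2.1, duplicates were removed with Picard, peaks were called per library with MACS2 without input, and peaks found in 3 of 6 libraries outside blacklisted regions were kept. deepTools is also listed. Whether reads were shifted for the transposase offset was not given in the sources used here. The deposited values are peak starts and ends in bp, in 1 list for both treatments, which the authors gave the score 0 throughout, so that neither depth, signal nor a change with GSI could be taken from it. Keeping only peaks seen in 3 libraries leaves out weak sites, and a peak's width depends on depth and on how libraries were merged.

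Positions were converted to 1-based coordinates. All 32527 peaks fitted the NCBIM37 (mm9) chromosomes and none overlapped. A peak belongs where its centre lies. Promoter peaks lie within 1 kb of a GENCODE vM1 transcript start, and all others are distal. Words were searched on both strands of the NCBIM37 genome. Shares have Wilson and densities Poisson 95% intervals, which treat peaks as independent and cover counting error only. The scripts (Python 3.11.15, numpy 2.4.6, pandas 2.3.3, scipy 1.17.1) were tested on simulated data. Peaks described singly by rule were those at Myc, in the Pvt1 region and within 50 kb of the enhancer, the 3 widest, the one with most TGGGAA, any with a head-to-head pair and the largest run, and all coding genes of the window were named. Other peaks, and the sequences of peaks 6, 34 and 45, were picked after their values were seen. The members, gene lists, intervals and words were chosen with earlier results of these data known. Sets of peaks were compared as descriptions, with no p-value. A promoter sequence of Myc and Pvt1 was planned but is not shown.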

Additional observations from a re-analysis of the deposited data

How the results depend on the processing

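With peaks of at least 500 bp only, the window had 27 peaks in place of 49, with 0 upstream, 3 between Pvt1 and 1 Mb, 9 from 1 to 1.5 Mb and 7 from 1.5 to 2 Mb, a median distal width of 642 bp in place of 519 bp, and 49.2% of windows below it in place of 50.1%. Joining peaks within 1 kb left 0 upstream and 1 at the promoter and gene. Within 25 kb of the enhancer position there were 3 peaks in place of 6, and within 100 kb there were 8 (60.0 and 40.0 per Mb). The share of windows below Myc was 47.6% by covered length, 70.7% by distal peaks and 100% among windows with no more coding starts. Of the other coding-gene-free stretches, 98.8% had fewer peaks per Mb than the stretch from Myc to Gsdmc. The last 2 were not among the alternatives listed at the start, and the stretches were chosen after seeing the data. The share of members with an RBPJ word, 36.7%, was 59.2% with TGAGAA and 8.16% in the central 200 bp. Of the other counts, the window had 44 peaks when joined and 49 with another Myc start or any overlap, and the distal share was 85.7% at 5 kb and 93.9% with coding transcripts only. The density ratio was 1.10 by covered length, 1.51 by distal peaks and 1.21 from 500 bp, and the median distal width 545 bp when joined. With peaks of at least 500 bp the promoter and gene had 2 peaks and the Pvt1 region 6. No paired analysis was possible because positions were merged over libraries. Leaving out libraries in turn was likewise impossible, and a score threshold could not be applied to scores that are all 0. The depth per library, which limits how many weak sites were called, is not given in the peak list and was not used here.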
